A study of Bos taurus with 8 samples.

Results

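The 55 genes described here code for chemokine receptors, integrins and a few partners of leukocyte adhesion, and they were measured in bovine blood cells with and without lipopolysaccharide (LPS), a component of the outer membrane of Gram-negative bacteria. They were taken by name from 21861 gene rows. The rule took each gene named CCR, CXCR, CX3CR, XCR or ACKR with a number and each gene with a name that starts with ITGA or ITGB, and it added ICAM1, ICAM3, SELPLG and S1PR4. The rule used names only, but it was set with earlier results of these data known. It gave 18 chemokine receptors, 4 atypical chemokine receptors, 17 integrin alpha subunits, 8 integrin beta subunits and the 4 added genes. It also took in ITGB1BP1, ITGB1BP2, ITGB3BP and ITGBL1, which share the name but are not integrin subunits.

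White blood cells leave the circulation in steps. SELPLG (PSGL-1) on the leukocyte lets it roll on selectins of the vessel wall, and chemokine receptors, which signal through G proteins, sense chemokines displayed there. That signal switches integrins, each a pair of an alpha and a beta subunit, to a form that binds ligands such as ICAM1 and VCAM1 firmly. Which receptors and integrins a cell carries decides where it can go: CCR7 and CXCR5 direct lymphocytes to and within lymph nodes, the pair ITGA4 and ITGB7 leads to the gut, and CXCR1 and CXCR2 bring neutrophils to CXCL8. Monocytes meet LPS first, through CD14 and the receptor TLR4.

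Blood of 4 female Holstein cattle, 2 years old, was mixed and split into 4 parts. One had no LPS, and the others were kept with LPS (2 µg/ml of whole blood) for 2 h, for 4 h and for 8 h, after which peripheral blood mononuclear cells (PBMCs) were isolated. How long the part without LPS was kept before isolation is not given in the sources used here. From each part came 1 library for scRNA-seq and 1 for scATAC-seq. No spread between animals or replicates can therefore be estimated, treatment and library cannot be told apart, and no test was made. Intervals given below are exact 95% intervals of counting error only.

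Sets of 4 values below are in the order of no LPS and then the LPS times. In scRNA-seq, 7821, 9865, 7387 and 3411 cells were kept, with medians of 3997 to 4757 UMIs per cell. A UMI (unique molecular identifier) marks 1 captured mRNA molecule, counted from its 3′ end. UMIs were summed over cells and are given as CPM, the UMIs of a gene divided by the UMIs of all genes in the same cells, times 1000000. The 8 h library stood apart with 26.6% of its cells under 2000 UMIs, against 8.83% to 14.3% in the others. Pairs of libraries shared 8 to 24 cell barcodes. The share of cells in the CD14 gate, defined in the next paragraph, was 9.62%, 3.36%, 1.79% and 2.32%. The summed level of 12 monocyte markers over all cells moved with it, from 4414 CPM to 1393, 771 and 1502 CPM. In sums over all cells, fewer cells of a type and less RNA per cell cannot be told apart.

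Cell classes were set by raw UMIs of 7 genes, without clustering, and are called by the gate gene. CD14 marks monocytes, and CSF3R (the G-CSF receptor) marks granulocytes and some monocytes. CD4 and CD8B mark T cell subsets, WC1 marks bovine γδ T cells, MS4A1 (CD20) marks B cells and NCR1 (NKp46) marks NK cells. The gates held 79 to 752 cells per library for CD14, 11 to 56 for CSF3R, 526 to 1512 for CD4, 235 to 620 for CD8B, 115 to 264 for WC1, 854 to 2623 for MS4A1 and 42 to 116 for NCR1. Between 35.8% and 40.8% of the cells were in no gate. The summed marker levels followed the gates: B markers reached 2104 to 2855 CPM in the MS4A1 gate and NK markers 1210 to 1438 CPM in the NCR1 gate. The NCR1 gate also held T markers at 382 to 560 CPM, against 1365 to 1454 CPM in the CD4 gate. The WC1 gate held B markers at 480 to 614 CPM. The part of these other markers in the results of the gates was not tested.

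Of the 55 genes, ITGA8, ITGA11 and ITGBL1 had 0 UMIs in the cells kept, which allows up to 0.0779 CPM in the no LPS library. A further 8 had 1 to 19 UMIs over the 4 libraries (ITGA7, CCR8, ACKR1, ITGB4, ITGB6, XCR1, ACKR2 and ITGB1BP2). Another 9 had 20 to 199 UMIs and stayed at or under 1.62 CPM in each library: CCR2, CCR3, CCR10, ACKR3, ACKR4, ITGA3, ITGA10, ITGB5 and S1PR4. The other 35 had at least 200 UMIs, and the results concern these. Levels spanned from CXCR4, with 505 CPM over all cells without LPS, down to CXCR2 with 0.779 CPM.

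Before LPS, the chemokine receptors split by cell class. CXCR4, the receptor of CXCL12 that keeps cells in bone marrow and is carried by most leukocytes, had 791 CPM (739 to 847) in the WC1 gate, 630 (609 to 651) in CD4, 597 (581 to 613) in MS4A1, 565 (496 to 640) in NCR1 and 479 (451 to 509) in CD8B. In the CD14 gate CXCR4 had 44.0 CPM (39.3 to 49.2). The intervals of CD4, MS4A1 and NCR1 overlapped, and the CD14 gate lay far under all the lymphocyte gates.

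CCR7, which binds CCL19 and CCL21 and marks naive and central memory lymphocytes, had 344 CPM (328 to 359) in the CD4 gate, 296 (284 to 307) in MS4A1 and 294 (272 to 317) in CD8B, and the last pair did not differ beyond its intervals. The other gates were far lower, with 52.6 CPM in NCR1, 30.1 in WC1 and 15.2 in CD14. CXCR5, the receptor of the B cell follicle chemokine CXCL13, had 74.5 CPM in the MS4A1 gate, 22.5 in CD4 and at most 1.31 in the other gates. CXCR6 (receptor of CXCL16) had 219 CPM in NCR1, 125 in CD8B, 45.6 in CD4 and 24.5 in WC1, and CX3CR1 (fractalkine receptor) 66.3 CPM in NCR1. CXCR3, the receptor of CXCL9 and CXCL10, had 24.9 CPM in CD8B and 14.9 in CD4. CCR9, the receptor of the gut chemokine CCL25, was at 27.9 to 29.2 CPM in CD4, CD8B and WC1, with overlapping intervals. CCR4, a receptor of CCL17 and CCL22, was at 13.1 CPM in CD4 and 5.65 in WC1.

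Myeloid gates carried a separate set. CCR1, a receptor of CCL3 and CCL5, had 1145 CPM (815 to 1566) in the CSF3R gate and 276 (264 to 289) in CD14. CXCR1 had 969 CPM (667 to 1361) in CSF3R and 4.89 in CD14, and CXCR2 rested on 2 UMIs in each of these gates. CXCR1 UMIs were also found elsewhere, at 116% of the CD14 gate level in WC1, 25.5% in MS4A1 and 7.43% in CD4. In CD8B and NCR1 CXCR1 was at 0. All these levels were far under the 969 CPM of the CSF3R gate. The background of free RNA given below rests on monocyte markers only. The part of free granulocyte RNA in these CXCR1 levels was not tested. The CSF3R gate held 25 cells without LPS, 23 of them under 2000 UMIs. CXCR1 and CXCR2 are neighbours in the cattle RefSeq annotation (ARS-UCD2.0) on chromosome 2, and CCR1 and CCR3, and XCR1, CXCR6 and CCR9, are neighbours on chromosome 22. How reads shared by such related genes were assigned was not examined.

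Integrin subunits were divided in the same way. ITGB2, the common beta subunit of the leukocyte integrins, had 370 CPM (356 to 385) in the CD14 gate, 144 (134 to 155) in CD4, 144 (111 to 184) in NCR1, 108 (101 to 115) in MS4A1, 107 (93.9 to 121) in CD8B and 41.4 (30.1 to 55.6) in WC1. Its partner ITGAM (CD11b), which binds complement fragments and ICAM1, had 83.4 CPM in CD14 and at most 6.86 in the lymphocyte gates. The partner ITGAL (CD11a), which with ITGB2 forms LFA-1, had 210 CPM (170 to 258) in NCR1, 94.2 in WC1, 75.1 in CD4, 68.9 in CD8B, 34.2 in MS4A1 and 15.5 in CD14. ITGAD, another partner of ITGB2, had 10.8 CPM (8.71 to 13.2) in MS4A1 and at most 0.140 elsewhere.

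ITGA4, which pairs with ITGB1 to bind VCAM1 or with ITGB7 to bind gut vessels, was highest in CD4 at 189 CPM (177 to 201), then 120 in CD8B, 98.0 in WC1, 58.6 in MS4A1, 45.7 in NCR1 and 9.64 in CD14. ITGB7 was highest in WC1 at 243 CPM (214 to 275), with 120 in CD8B, 115 in CD4, 80.0 in NCR1, 48.0 in MS4A1 and 10.5 in CD14. ITGB1, the partner of many alpha subunits, varied less, from 92.0 to 171 CPM over the 6 larger gates. Among the 6 larger gates, CD14 was highest for ITGB3 (108 CPM), ITGA5 (34.5), ITGA9 (16.2), ITGB8 (15.0) and ITGAV (7.83), subunits that bind fibronectin, vitronectin or latent TGF-β. ITGB3 also had 42.4 CPM in WC1. Its platelet partner ITGA2B had 1.68 CPM in CD14, where the platelet markers found summed to 10.9 to 19.7 CPM over the 4 libraries. The platelet markers PF4 and PPBP had no gene row, so this sum does not cover them. The part of platelet RNA in the ITGB3 levels was not tested. SELPLG was highest in NCR1 at 329 CPM (278 to 388), followed by 163 in CD8B and 121 in CD4.

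**Figure D1:**
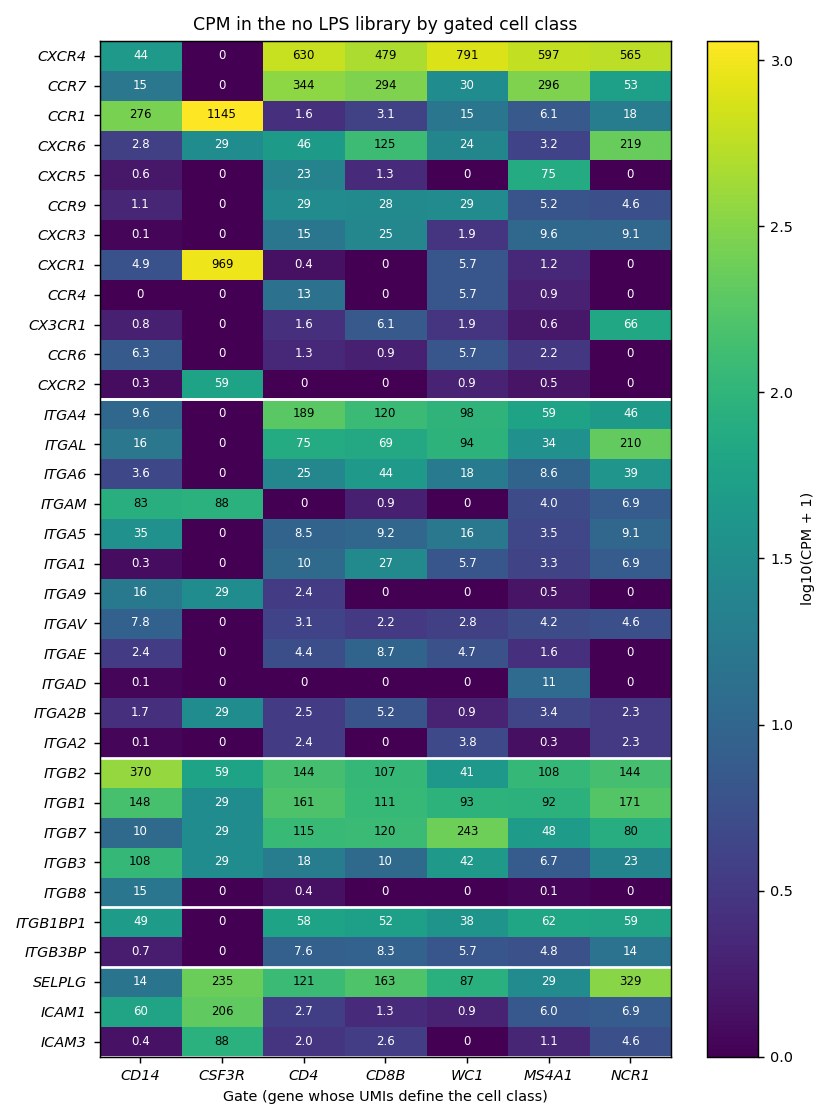
Level of 34 genes with at least 200 UMIs in each gate of the no LPS library, in CPM (printed in each field, colour as log10(CPM + 1)), with white lines between the groups of genes. CXCR4 and CCR7 are high in lymphocyte gates, CCR1 and CXCR1 in the CSF3R gate (25 cells), and ITGB2 in the CD14 gate at 370 CPM.

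Averaged over the 4 libraries and without the small CSF3R gate, 31 genes had at least 200 UMIs in the gates. The same gate was highest in all 4 libraries for 21 of them. RNA freed from broken cells sets a background for genes of monocytes found in lymphocyte gates: over the monocyte markers, a lymphocyte gate held a median of 0% to 2.84% of the CD14 gate level. ITGAM in CD4, CD8B and WC1, CCR1 in CD4 and CD8B, and ITGB8 in CD8B, WC1, MS4A1 and NCR1 lay within the range of these markers in all 4 libraries and were read as background.

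LPS was first compared over all cells. Genes with 20 or more UMIs in the pair of libraries were tested for size, not significance, and all ratios share the no LPS library. A gene was called when log2((CPM + 1)/(CPM + 1)) against no LPS was at least 1 or at most -1. At 2 h, 44 of the 55 genes were tested, and CXCR2, CXCR5 and ICAM1 were called higher, against 0.938% of all genes. Those called lower included CCR1 and ITGAM, against 2.46% of all genes. At 4 h, with 43 tested, CXCR5 was called higher (1.28% of all genes) and CCR1, ITGAM and ITGB2 lower (4.26%). At 8 h, also with 43 tested, CXCR5 was called higher (0.492%), and those lower included CCR1 and ITGAM (2.92%). Median log2 ratios of the tested members were -0.17, -0.12 and 0.10 at 2 h, 4 h and 8 h, beside -0.03, 0.02 and 0.10 over all genes tested. At 1.5-fold, 5, 4 and 6 members were higher, against 3.18%, 4.72% and 4.86% of all genes, and 6, 7 and 6 were lower, against 6.29%, 9.05% and 6.65%.

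CXCR5 had 27.0, 101, 90.0 and 59.6 CPM over all cells. All 3 LPS libraries were above the no LPS library, most so at 2 h, and the intervals did not overlap. The ratios were 3.75 (3.50 to 4.01), 3.33 (3.11 to 3.57) and 2.20 (2.02 to 2.41). With scaling by TMM or DESeq2 size factors, which removes a shift of 0.10 on the log2 scale in the median gene at 8 h, CXCR5 was no longer past 2-fold at 8 h. ICAM1, a ligand of ITGB2 integrins that is itself induced by inflammatory signals, had 16.6, 37.0, 22.8 and 24.9 CPM in the same order. Its ratios were 2.22 (2.03 to 2.44), 1.37 and 1.5, and the 2 h value was 1.91 in cells with at least 2000 UMIs. The 2 h call of ICAM1 was also lost with no upper limit on genes and with a pseudocount of 5 CPM.

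ITGAM had 21.1, 4.76, 1.97 and 2.76 CPM, which is 4.42-fold, 10.7-fold and 7.63-fold lower. CCR1 had 72.0, 25.1, 29.1 and 32.4 CPM, or 2.87-fold, 2.47-fold and 2.22-fold lower. ITGB2 had 165, 91.0, 65.7 and 98.1 CPM, or 1.82-fold, 2.52-fold and 1.69-fold lower. These genes had their highest gate in CD14 or CSF3R. Their sums, the share of the CD14 gate and the monocyte markers given above were all lower than without LPS at each time. From 2 h to 4 h the sum of CCR1 rose from 25.1 to 29.1 CPM, while that share and those markers fell. Without the cells of the CD14 and CSF3R gates, ITGAM remained called lower at each time, and CCR1 and ITGB2 were not called. In the same cells CXCR5 was called higher at 2 h and 4 h but not at 8 h, and ICAM1 was called higher at each time. With no upper limit on genes per cell, CCR1 at 8 h was 1.34-fold lower and no longer called.

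CXCR4, the most abundant gene of the set, had 505, 636, 682 and 617 CPM, and CCR7 had 255, 398, 376 and 318 CPM. Both were above the no LPS library at each time, by 1.22 to 1.35 times for CXCR4 and 1.25 to 1.56 times for CCR7, under the 2-fold limit. CCR4 had 3.27, 5.93, 7.45 and 6.42 CPM, the latter ones 1.81, 2.28 and 1.96 times the level without LPS, but with the pseudocount of 1 CPM it was under 2-fold. CX3CR1 had 3.19, 1.78, 1.64 and 1.2 CPM, lower at each time and 2.66-fold lower at 8 h. ITGAE had 3.77, 3.20, 5.18 and 7.26 CPM and ITGA2 had 1.69, 1.92, 2.61 and 3.06 CPM. Both were highest at 8 h, the library with the most cells of low UMI count.

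CXCR2, the neutrophil receptor of CXCL8, had 0.779, 2.84, 2.29 and 2.04 CPM from 30, 136, 92 and 34 UMIs, with ratios of 3.65, 2.94 and 2.62. CXCR1 had 5.43, 7.56, 11.4 and 6.42 CPM, highest at 4 h with a ratio of 2.11 (1.78 to 2.49). Both receptors were above the no LPS level in each LPS library, although the interval of the CXCR1 ratio at 8 h included 1. The CSF3R gate held 0.32%, 0.568%, 0.69% and 0.322% of the cells, in the same order as CXCR1, and its part in the result was not tested.

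ITGA5 had 14.1, 6.83, 8.74 and 10.1 CPM, 2.06-fold lower at 2 h. ITGB8 had 3.25, 2.78, 1.54 and 2.46 CPM, and ITGA9 had 4.57, 3.84, 2.86 and 2.52 CPM. All 3 subunits were under the no LPS level in each LPS library. The intervals of ITGB8 at 2 h and 8 h and of ITGA9 at 2 h overlapped those without LPS. ITGAV, with 4.39, 4.93, 3.66 and 4.8 CPM, also had intervals that overlapped that without LPS. Within the CD14 gate, ITGA9, ITGAV and ITGB8 were called higher at 4 h, as given below. ICAM3, another ligand of ITGAL with ITGB2, had 2.26, 2.19, 2.59 and 4.62 CPM, with an 8 h ratio of 2.05 (1.49 to 2.81).

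Over all cells, 7 further named genes stayed within 1.5-fold. ITGA4 had 88.3, 68.2, 70.7 and 80.6 CPM, ITGB1 122, 92.1, 91.0 and 111 CPM, and ITGB7 79.3, 66.2, 63.7 and 66.5 CPM. SELPLG had 81.6, 63.3, 64.2 and 71.1 CPM and ITGAL 52.4, 41.0, 43.9 and 58.1 CPM. CXCR6 had 31.3, 24.8, 32.7 and 22.3 CPM and CXCR3 8.16, 6.81, 7.42 and 6.06 CPM. Within gates some of them differed by more, as given below. The other 9 genes with at least 200 UMIs (ITGA1, ITGA2B, ITGA6, ITGAD, ITGB3, ITGB1BP1, ITGB3BP, CCR6 and CCR9) had ratios between 0.625 and 1.56.

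**Figure D2:**
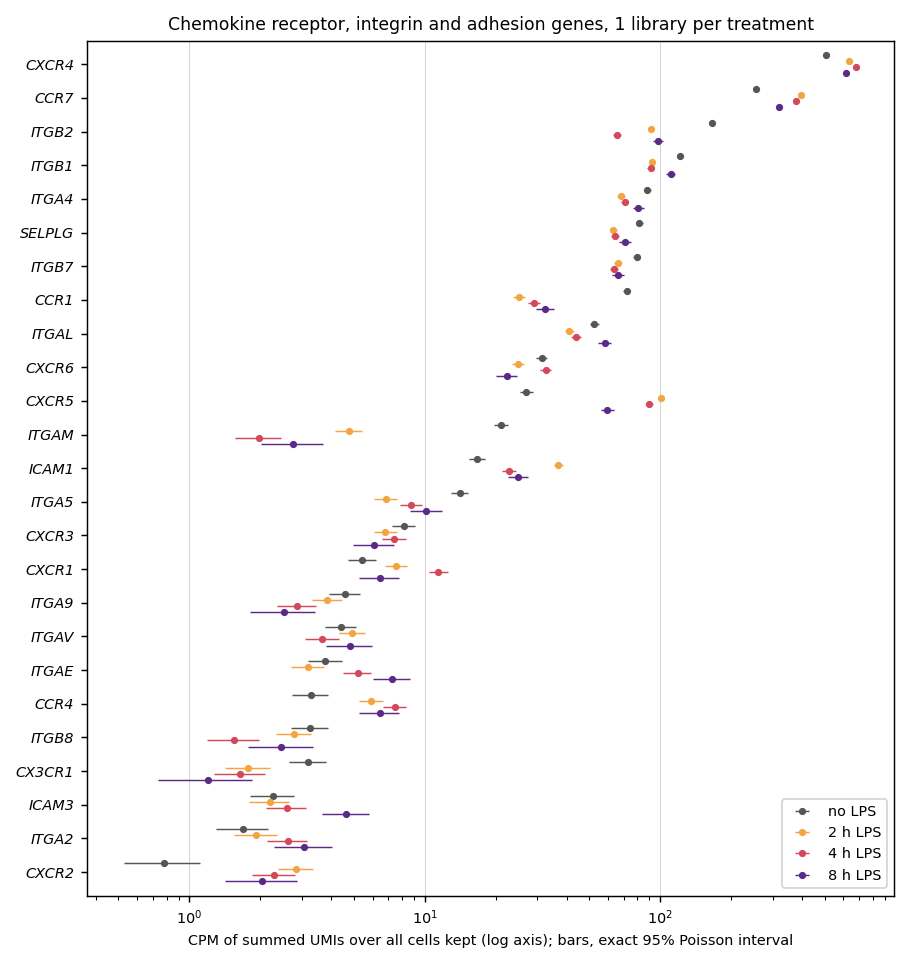
Level over all cells of 25 genes named by the rule, in CPM on a log axis, with 1 point per library and exact 95% Poisson intervals (counting error only). CXCR5 lies to the right of its no LPS point (27.0 CPM) in all 3 LPS libraries, and ITGAM (21.1 CPM without LPS) and CCR1 (72.0 CPM) lie to the left.

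Within the MS4A1 gate CXCR5 (ENSBTAG00000046320) was also higher with LPS. It had 74.5, 280.5, 213 and 143 CPM, with ratios of 3.76 (3.46 to 4.09), 2.86 (2.62 to 3.12) and 1.92 (1.73 to 2.15). After thinning each cell to 1000 UMIs, the share of MS4A1 gate cells with a CXCR5 UMI was 6.83%, 19.1%, 15.9% and 11.4%, ordered as the CPM; the shares before thinning were 22.7%, 48.7%, 49.4% and 37.8%. In the CD8B gate, which lacked CXCR5, at most 0.442% of thinned cells had one. In the CD4 gate, the other gate with CXCR5, the levels were 22.5, 25.1, 30.3 and 26.1 CPM, and no ratio passed 1.35. The difference between the gates was not tested.

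Among the 32 members tested in the MS4A1 gate at 2 h, CXCR5 and ICAM1 were called higher (2.35% of all genes) and ITGA4 and ITGA5 lower (1.44%). At 4 h, with 32 tested, CXCR5 and ICAM1 were higher (2.31%) and ITGA4, ITGA5, ITGAM, ITGB2 and ITGB7 lower (3.98%). At 8 h, with 30 tested, ICAM1, ICAM3 and ITGAE were higher (2.26%) and ITGAM lower (1.5%). With no upper limit on genes, ITGA4 at 2 h and 4 h, ITGA5 at 4 h, and ICAM1 and ICAM3 at 8 h were no longer called. ITGAM was above the background of free RNA in this gate without LPS and at 2 h and within it at 4 h and 8 h. ITGA4 had 58.6, 27.6, 24.8 and 33.4 CPM, with the 4 h library 2.36-fold lower than no LPS. ITGB7 had 48.0, 29.3, 17.6 and 24.5 CPM, 2.73-fold lower at 4 h. ITGB2 had 108, 59.4, 40.3 and 68.1 CPM, 2.68-fold lower at 4 h. With no upper limit on genes, the 4 h values of ITGA4 and ITGB7 were 1.89-fold and 2.06-fold lower.

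CCR7 in the MS4A1 gate was 296, 452, 322 and 273 CPM, higher at 2 h by 1.53 times (1.46 to 1.60) and under the no LPS level at 8 h. CXCR4 was lower there at each LPS time, with 597, 433, 503 and 505 CPM, while in the CD4 gate it was higher at each, with 630, 812, 826 and 690 CPM. ICAM1 in the MS4A1 gate had 6.0, 17.3, 13.8 and 15.3 CPM, which was 8.26% to 11.2% of the CD14 gate level. The highest share in that gate of any of the markers used for the background, which leave out CST3, was 3.87%, under that of ICAM1. ITGAD had 10.8, 7.75, 5.09 and 7.23 CPM, 2.12-fold lower at 4 h in CPM and just under the 2-fold call.

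In the CD14 gate the number of cells, and at 8 h their median of 3564 UMIs against 9671 to 12458 before, limit the precision. ICAM1 (ENSBTAG00000010303) had 59.5, 170, 167 and 137 CPM, with ratios of 2.85 (2.52 to 3.23), 2.81 (2.37 to 3.32) and 2.29 (1.81 to 2.89). All 3 LPS values were above the no LPS value, and they were not ordered beyond their intervals between 2 h and 4 h. The CSF3R gate had ICAM1 at 206, 848, 734 and 350 CPM, the first from 7 UMIs and the last from 10.

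Of the 24 members tested in the CD14 gate at 2 h, CXCR1, CXCR2, ICAM1 and ITGAV were called higher (3.97% of all genes), and those lower included CCR1, CCR6, CXCR6, ITGA5, ITGAM and ITGB7 (19.2%). At 4 h, with 23 tested, CXCR1, CXCR2, CXCR4, ICAM1, ITGA9, ITGAV and ITGB8 were higher (5.55%), and CCR6, CXCR6, ITGA6, ITGAL, ITGAM, ITGB2 and SELPLG lower (11.8%). At 8 h, with 22 tested, CCR7, CXCR4, ICAM1, ITGAV and ITGB8 were higher (5.55%), and those lower included CCR6 and ITGA6 (7.35%). With no upper limit on genes, CCR7, CXCR4, ICAM1 and ITGB8 at 8 h, ITGAV and ITGB8 at 4 h, and the lower calls of CXCR6 and ITGB7 at 2 h, of CXCR6, ITGA6 and SELPLG at 4 h and of CCR6 and ITGA6 at 8 h were lost. SELPLG at 4 h was then 1.53 times higher. Median log2 ratios were -0.67, -0.37 and 0.14, beside -0.52, -0.17 and -0.01 over all genes tested in this gate.

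Integrin subunits of the CD14 gate moved in opposite directions. ITGAV, which with ITGB3 or ITGB8 binds vitronectin or latent TGF-β, had 7.83, 20.0, 21.2 and 30.3 CPM, with ratios of 2.55 (1.78 to 3.67), 2.71 (1.65 to 4.36) and 3.88 (2.20 to 6.56). ITGB8 had 15.0, 25.7, 34.6 and 33.4 CPM, and ITGB3 had 108, 137, 211 and 170 CPM. All 3 of these were above the no LPS level at each time. ITGAM had 83.4, 36.6, 31.4 and 42.5 CPM, or 2.28-fold, 2.65-fold and 1.96-fold lower, and ITGB2 had 370, 212, 173 and 291 CPM, or 1.74-fold, 2.14-fold and 1.27-fold lower. Both of the latter were lower than without LPS at each time. ITGA5, a fibronectin receptor subunit, had 34.5, 13.0, 25.9 and 30.3 CPM, low at 2 h and within its interval of the no LPS level at 8 h.

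CCR1 in the CD14 gate had 276, 115, 344 and 279 CPM, so it was 2.40-fold lower at 2 h, 1.24 times higher at 4 h and level at 8 h with a ratio of 1.01 (0.864 to 1.18). CXCR1 had 4.89, 16.9, 77.8 and 6.07 CPM. Some cells of this gate also carried CSF3R. In the CSF3R gate CCR1 had 1145, 661, 903 and 979 CPM. The part of cells carrying CSF3R in the CCR1 values of the CD14 gate was not tested. The cells without a CSF3R UMI were 708 of 752, 284 of 331, 91 of 132 and 71 of 79, and in these CXCR1 was 3.68, 6.85 and 23.1 CPM, with 0 UMIs at 8 h. CXCR2 had 2 UMIs without LPS and 30, 18 and 4 UMIs with LPS in this gate.

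CXCR4 and CCR7, receptors mostly of lymphocytes, were also higher with LPS in the CD14 gate. CXCR4 had 44.0, 85.8, 141 and 123 CPM, or 1.95, 3.21 and 2.79 times the no LPS level. CCR7 had 15.2, 18.4, 30.6 and 53.1 CPM, with an 8 h ratio of 3.49 (2.31 to 5.14) from 35 UMIs. T markers in the CD14 gate summed to 40.9, 30.1, 68.3 and 65.2 CPM, or 2.82%, 2.2%, 5.0% and 4.56% of the CD4 gate, lower at 2 h and higher at 4 h and 8 h than without LPS. B markers there summed to 21.8, 16.9, 34.6 and 100.1 CPM, or 0.763%, 0.664%, 1.56% and 4.76% of the MS4A1 gate, highest at 8 h. At 8 h CCR7 in the CD14 gate was 13.1% and CXCR4 17.8% of the CD4 gate level. Their part in the result was not tested. The 8 h ratios of CCR7 and CXCR4 were 2.51 and 1.91 in cells with at least 2000 UMIs, and 1.67 and 1.74 with no upper limit on genes.

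**Figure D3:**
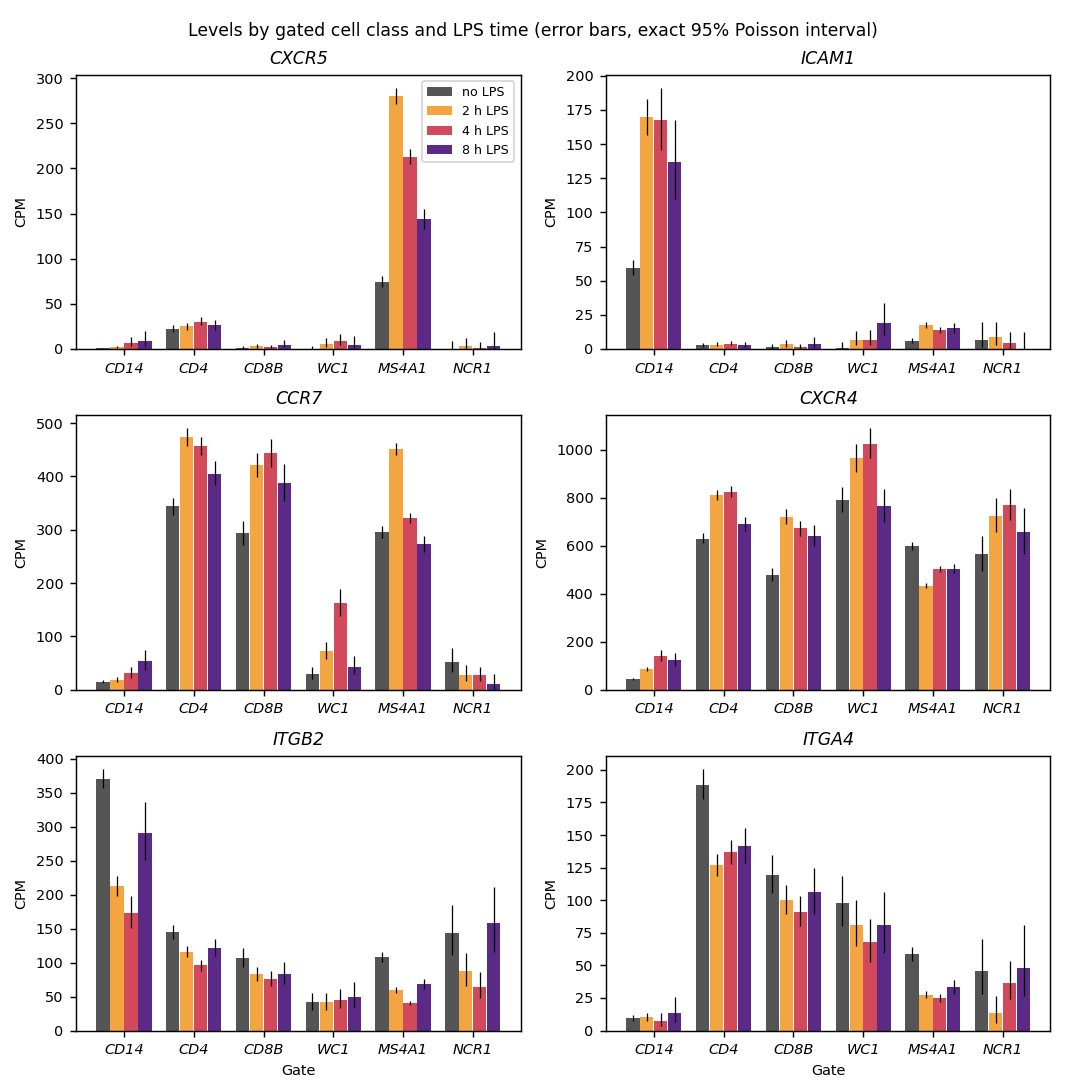
CPM of CXCR5, ICAM1, CCR7, CXCR4, ITGB2 and ITGA4 by gate, with 4 bars per gate for the no LPS, 2 h, 4 h and 8 h libraries and exact 95% Poisson intervals. The CSF3R gate is left out for its few cells. CXCR5 is higher with LPS in the MS4A1 gate (74.5 to 280.5 CPM at 2 h), ICAM1 in the CD14 gate (59.5 to 170 CPM), and CCR7 in the WC1 gate peaks at 4 h with 162 CPM.

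In the CD4 gate none of 29 members tested was called at 2 h (0.717% of all genes higher, 0.888% lower) and none of 30 at 4 h (1.6% and 1.35%). At 8 h, of 28, ITGAE was higher (1.12% of all genes, with 0.839% lower). ITGAE, the alpha subunit that with ITGB7 binds E-cadherin of epithelia, had 4.36, 4.06, 7.30 and 11.3 CPM in this gate. CCR7 had 344, 474, 456 and 405 CPM in the CD4 gate and 294, 421, 443 and 387 CPM in CD8B, and all LPS values lay above the intervals of no LPS. ITGA4 in the CD4 gate had 189, 127, 137 and 142 CPM, 1.49-fold, 1.38-fold and 1.33-fold lower.

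In the CD8B gate, of 21 members tested at 2 h none was called (1.11% of all genes higher, 1.03% lower), of 20 at 4 h ITGA5 was higher (1.32% of all genes; 1.19% lower), a call lost with no upper limit on genes and in cells with at least 2000 UMIs, and of 19 at 8 h those lower included CXCR3 and CXCR6 (2.36% of all genes; 2.14% higher). CXCR6 had 125, 71.8, 85.6 and 38.4 CPM, and CXCR3 had 24.9, 13.9, 15.0 and 3.76 CPM. Both were lower than without LPS in each LPS library, and lowest at 8 h, by 3.25-fold and 6.61-fold. NK markers in this gate moved with them, with 476, 399, 533 and 181 CPM, and their part in the result was not tested. The 8 h values were 1.88-fold and 1.99-fold lower with no upper limit on genes, and neither was called.

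In the WC1 gate CCR7 (ENSBTAG00000015133) had 30.1, 71.9, 162 and 43.5 CPM, with ratios of 2.38 (1.56 to 3.72), 5.39 (3.67 to 8.13) and 1.44 (0.833 to 2.49). The 4 h library stood above the other 3, and the 8 h library did not differ from no LPS beyond its interval. After thinning, 1.15%, 4.0%, 7.81% and 2.61% of the WC1 gate cells had a CCR7 UMI, from 3, 10, 15 and 3 cells. Before thinning the shares were 6.44%, 10.4%, 16.6% and 13.0%. T markers in this gate were at 1478 to 1685 CPM in all 4 libraries. The WC1 gate also held B markers, as given above, and CCR7 in the MS4A1 gate was at 273 to 452 CPM. The part of cells or RNA with B markers in the CCR7 values was not tested. CCR4 was also higher, with 5.65, 15.7, 18.4 and 9.67 CPM from 6 to 19 UMIs per library. Of 15 members tested, CCR4 and CCR7 were called higher at 2 h (3.19% of all genes) and 4 h (4.65%). None was lower at 2 h (2.72%), CCR9 was lower at 4 h (3.73%; ratio 1.01 with no upper limit on genes), and at 8 h, of 14, CXCR6 was lower with 3 UMIs (1.95%) and none higher (2.89%). ITGB2 had 41.4, 41.5, 45.4 and 49.99 CPM in this gate, with overlapping intervals.

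In the NCR1 gate no member was higher among 14, 14 and 13 tested (5.01%, 3.84% and 3.62% of all genes). Those lower included ITGA4 at 2 h (2.87%), CX3CR1 and ITGB2 at 4 h (2.83%) and CCR7 and CX3CR1 at 8 h (3.65%). ITGA4 had 45.7 CPM without LPS and 13.4 CPM at 2 h, the latter from 8 UMIs, and with no upper limit on genes it was 1.28-fold lower and not called. CX3CR1, typical of cytotoxic cells in blood, had 66.3, 47.0, 18.3 and 24.1 CPM from 29, 28, 13 and 7 UMIs. ITGB2 had 144, 87.3, 64.6 and 158 CPM, low at 2 h and 4 h and back at 8 h. SELPLG varied little, with 329, 264, 273 and 299 CPM and overlapping intervals.

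**Figure D4:**
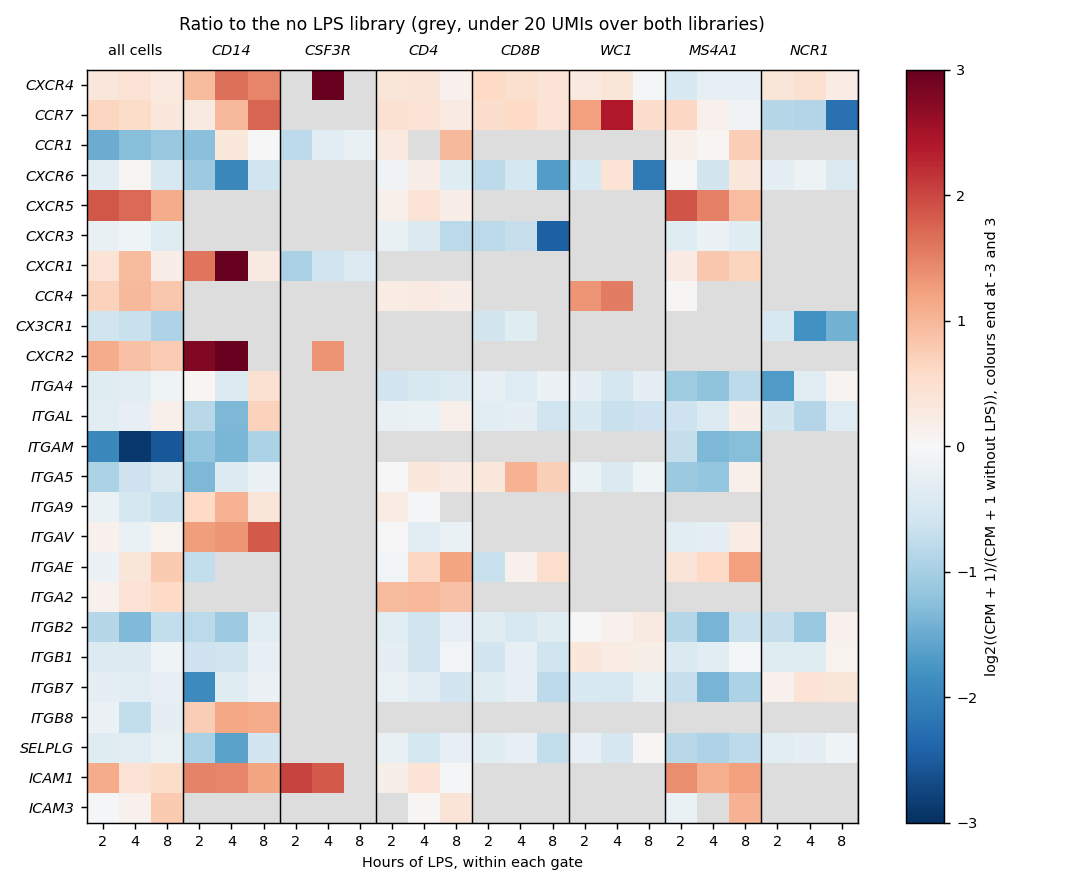
log2((CPM + 1)/(CPM + 1)) of 25 named genes against no LPS, over all cells and in each gate at 2 h, 4 h and 8 h (red higher, blue lower, grey under 20 UMIs over both libraries; colours end at -3 and 3). CXCR5 is red in the MS4A1 gate, CCR7 in WC1 at 4 h, and ITGAM is blue in the CD14 gate, at 2.28-fold lower at 2 h.

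In the CSF3R gate, 3, 5 and 2 members were tested at the LPS times. ICAM1 was called higher at 2 h (17.8% of all genes), and CXCR2, CXCR4 and ICAM1 at 4 h (24.6%). None was higher at 8 h (9.9%), and none lower at 2 h, 4 h or 8 h (31.2%, 23.1% and 25.4%). CCR1 had 1145, 661, 903 and 979 CPM and CXCR1 969, 491, 641 and 735 CPM. The gate held 12 cells in place of 11 at 8 h with no upper limit on genes, where CCR1 was then at 555 CPM and CXCR1 at 382 CPM, and both were called lower, by 2.06-fold and 2.54-fold. In cells with at least 2000 UMIs both had 394 CPM without LPS, from 3 UMIs each, and CCR1 at 4 h was 1.83 times higher in place of 1.27-fold lower. CXCR4 had 0 UMIs without LPS, which allows up to 88.1 CPM, and 253 CPM at 4 h, where T markers in this gate were at 236 CPM. Their part in the result was not tested.

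Ligands and partners of these receptors were described from lists. Of 34 chemokine ligands, 32 had a row and 19 were tested. At 2 h CCL20 and CXCL10 were past 2-fold higher (0.938% of all genes) and CCL2, CXCL13 and CXCL5 lower (2.46%). At 4 h CXCL10 was higher (1.28%) and 7 ligands were lower (4.26%). The latter were CCL2, CCL8, CXCL2, CXCL3, CXCL5, CXCL12 and CXCL16. At 8 h CCL1, CXCL10 and XCL1 were higher (0.492%) and CCL2, CCL8, CXCL5, CXCL13 and CXCL16 lower (2.92%). CCL20, the ligand of CCR6, had 52.9, 591, 53.8 and 55.8 CPM over all cells, and CXCL10, a ligand of CXCR3, 15.2, 45.5, 151 and 61.2 CPM. CCL2, the ligand of CCR2, had 7539, 1254, 375 and 1139 CPM, and CCL8 707, 395, 80.3 and 130.1 CPM. CXCL5, a ligand of CXCR2, had 18431, 8037, 4142 and 6524 CPM, CXCL2 7801, 8295, 3379 and 4317 CPM, and CXCL3 1617, 1980, 540.3 and 833 CPM. CXCL16, the ligand of CXCR6, had 152, 116, 63.3 and 74.8 CPM, CXCL12 3.95, 1.86, 1.02 and 2.58 CPM, XCL1 3.90, 4.16, 3.36 and 8.94 CPM, and CCL1 0.571, 0.146, 0.0996 and 22.4 CPM. Of these, CCL2, CCL8, CXCL5 and CXCL16 were lower at each time, as were the monocyte markers, and the part of these was not tested. Median log2 ratios of the list were 0.07, -0.46 and -0.45, beside -0.03, 0.02 and 0.10 over all genes tested.

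Of 36 genes of integrin activation and cell traffic, 35 had a row and 33 were tested. RGS1, which dampens chemokine receptor signals, was past 2-fold higher at 2 h and 4 h, with 142, 324, 351 and 260.1 CPM. CD9, a tetraspanin that associates with integrins, had 242, 102, 50.8 and 85.97 CPM and was lower at all 3 times. ARRB2, an arrestin of receptor uptake, had 43.0, 17.9, 16.1 and 24.7 CPM and was lower at 2 h and 4 h. FERMT3 (kindlin-3), needed to activate leukocyte integrins, had 178, 93.5, 81.6 and 109 CPM, and RGS14 15.7, 9.80, 6.47 and 11.9 CPM, both past 2-fold lower at 4 h. Median log2 ratios were -0.19, -0.33 and -0.27, beside -0.03, 0.02 and 0.10 over all genes tested. Of all genes tested, 0.938%, 1.28% and 0.492% were past 2-fold higher at 2 h, 4 h and 8 h, and 2.46%, 4.26% and 2.92% lower.

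Accessibility was read from the scATAC-seq counts per gene, which were 975012 in the no LPS library and 30250143, 26837579 and 11957904 in the LPS libraries. Median counts per barcode were 213, 5171, 5205 and 2250. The no LPS library was thus kept out of the ratios, and it shared 228 barcodes, 7.31% of its own, with the 2 h library, against 10 to 31 in other pairs. The LPS libraries were therefore compared with the 2 h library. Of the 55 genes, 31, 43, 41 and 32 were listed in the no LPS, 2 h, 4 h and 8 h tables.

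Accessibility is given as CPM of these counts, for the LPS libraries in order of time. CXCR4 had 242, 234 and 251 CPM, and CCR7 had 124, 122 and 122 CPM. The values of both lay close together over time. CXCR5 had 83.0, 79.3 and 63.2, so that at 8 h it was 1.31-fold lower than at 2 h, and its value without LPS was 96.4 (70.8 to 128). ICAM1 had 66.5, 68.3 and 56.0, beside 42.1 (25.9 to 64.6) without LPS. Between 2 h and 4 h, 40 members were tested at 1.5-fold, and CCR10 was higher (0.808% of all genes) and ITGA3, ITGA11 and ITGB5 lower (2.98%). Between 2 h and 8 h, 32 were tested, and CCR10, ITGA1, ITGAV and ITGB8 were higher (2.77%). Those lower included CCR4, CCR9, ITGA2B, ITGA5, ITGA9, ITGB3, ITGB4, ITGB7 and S1PR4 (14.1%). The median log2 ratio of members at 8 h was -0.33, beside 0.00 over all genes, and the 8 h library had less than the 2 h library in counts per barcode.

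ITGAV had 52.6, 60.2 and 92.7 CPM, with an 8 h ratio of 1.76 (1.58 to 1.97). ITGB8 had 13.3, 19.5 and 30.5, with a ratio of 2.29 (1.86 to 2.81). Both also had more RNA in the CD14 gate at 8 h than without LPS, though the references of these ratios differ and the accessibility is over all nuclei. With no upper limit on genes, the call of ITGB8 in that gate at 8 h was lost. Over all cells, as given above, the RNA of neither gene was higher at 8 h than at 2 h. Among the members listed at 8 h, the highest ratios of 2 h over 8 h were those of CCR4, with 21.9, 18.1 and 0.669 CPM, ITGA2B with 13.0, 12.8 and 1.0, S1PR4 with 44.8, 46.8 and 5.52, and ITGB3 with 67.1, 59.4 and 10.7. ITGB3 RNA over all cells was at 28.7, 24.7 and 34.5 CPM at these times, and CCR4 RNA at 5.93, 7.45 and 6.42 CPM. Neither was lower at 8 h than at 2 h. The CCR4 accessibility values rest on 663, 487 and 8 counts. ITGAD, with 619 and 499 counts at 2 h and 4 h, and CCR2, with 607 and 510, were not listed at 8 h. How genes came to be listed in each library is not given in the sources used here. The part of the listing in the ratios of 2 h over 8 h was not tested. ACKR2, with at most 3 UMIs of RNA in any library, had 154, 152 and 161 CPM.

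**Figure D5:**
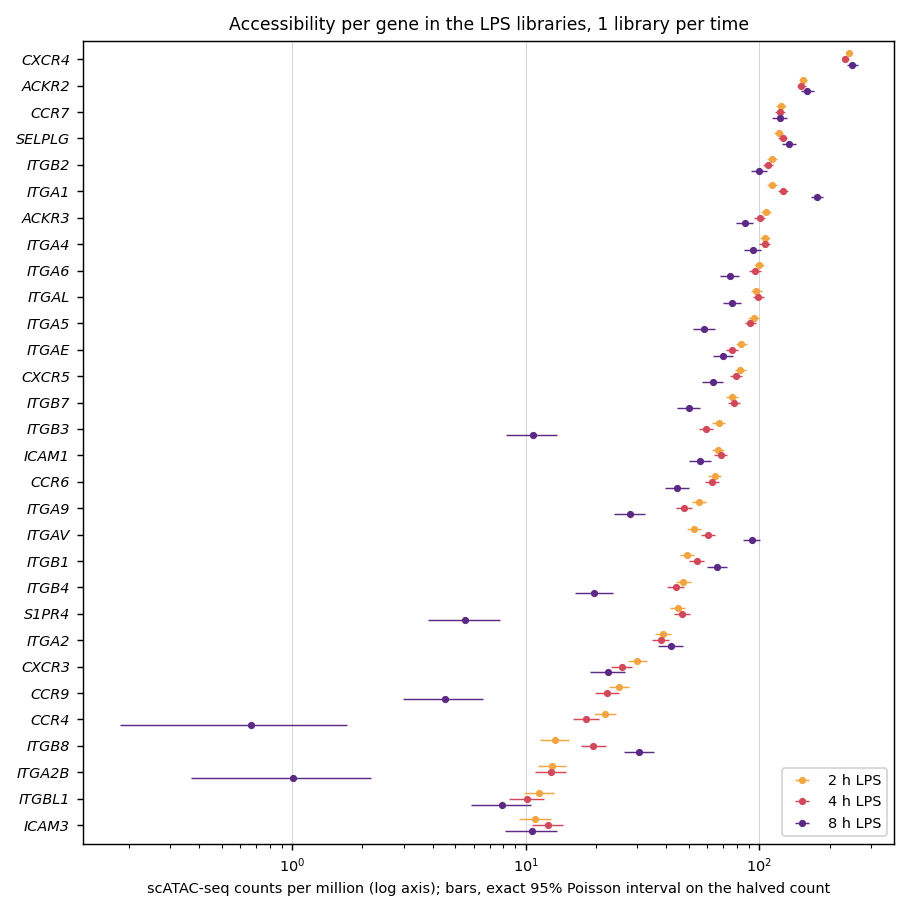
Accessibility of 30 members with at least 200 counts at 2 h and a count at 8 h, in CPM on a log axis, for the 2 h, 4 h and 8 h libraries, with exact 95% Poisson intervals on the halved count. CXCR4 (242 at 2 h) is nearly the same at the 3 times, and CCR4, ITGA2B, S1PR4 and ITGB3 lie far to the left at 8 h.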

How the data were processed

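The scRNA-seq tables deposited by the authors hold whole UMI counts (genes by barcodes), from the 10x 3′ v3 kit and Cell Ranger with the genome ARS-UCD1.2. For scATAC-seq they deposited whole-number counts per gene and barcode, and how these were counted is not given in the sources used here. Most were even (88.7% to 93.8%), so intervals were set on the halved count. Members and lists were chosen with earlier results of these data known.

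A cell was kept if it had 200 to 3000 genes, a minimum of 200 UMIs and a mitochondrial share below 20%. That left 88.4% to 94.6% of barcodes, with 16657841 to 47875879 UMIs per library. Gates were positive from 2 UMIs (CD14, CSF3R) or 1 UMI (CD4, CD8B, WC1, MS4A1, NCR1) and excluded each other. Cells positive for several (3.18% to 4.77%) were left out, and no doublet caller was run. UMIs were summed per library and gate and scaled to CPM. Intervals were exact Poisson intervals (ratios: conditional binomial) at 95%, and a count of 0 was bounded by 3 counts. Ratios printed as folds have no pseudocount, and calls used 1 CPM, at least 20 UMIs and 2-fold (accessibility: 200 counts and 1.5-fold).

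The genes named had at least 200 UMIs and were past 1.5-fold over all cells, or past 2-fold in a gate with 50 UMIs, or among the 3 highest of a gate without LPS. Further members with fewer UMIs were named for their calls after their values were seen. For free RNA, CST3 (and FCER1G in the NCR1 gate) and markers under 20 UMIs in the CD14 gate were left out after the values were seen. Thinning to 1000 UMIs, the CD14 gate without CSF3R and the sums without both myeloid gates were likewise added after seeing the data. In simulated counts over all cells with 200 changed genes, changes were scored only in genes with at least 200 UMIs. Among these the sign of every 4-fold change was recovered, in 73, 77 and 75 genes at 2 h, 4 h and 8 h. Changed genes with fewer UMIs, and sums within gates, were not scored. Python 3.11.15, numpy 2.4.6, pandas 2.3.3, scipy 1.17.1 and matplotlib 3.10.9 were used, and edgeR 4.0.16 and DESeq2 1.42.0 under R 4.3.3 for scaling alternatives only, without a test. The RefSeq table is of ARS-UCD2.0, matched 55 of 55 members by symbol, and served for gene order only. One of the members is not reported here; counts and medians over members include it.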

Additional observations from a re-analysis of the deposited data

Results flagged for a closer look

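Opposite ratios in 2 gates at the same LPS time were found for 2 genes, and the differences between the gates were not tested. At 4 h, ITGA5 had a log2 ratio of 1.03 in the CD8B gate, from 9.16 to 19.8 CPM, and of -1.15 in the MS4A1 gate, from 3.51 to 1.03 CPM. With no upper limit on genes neither value passed 2-fold on this scale, and in cells with at least 2000 UMIs the CD8B value did not. The 31 and 13 UMIs behind the latter values are few. At 8 h, CCR7 had a log2 ratio of 1.74 in the CD14 gate, from 15.2 to 53.1 CPM, and of -2.24 in the NCR1 gate, from 52.6 to 10.3 CPM, the last from 3 UMIs.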

How the results depend on the processing

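Of 624 values of named genes under the alternatives, 422 moved by less than their counting interval, 202 moved by more and 0 changed the direction of a call. Calls in gates were still lost to ratios of the other direction. SELPLG in the CD14 gate at 4 h, called lower, was above the no LPS level with no upper limit on genes, and was then not called. At 2 h the 3 genes called higher became 1 in cells with at least 2000 UMIs, 1 with a pseudocount of 5 CPM and 5 at 1.5-fold. They became 2 with no upper limit on genes, with at least 200 UMIs per gene, or without the CD14 and CSF3R gates. The 3 called lower became 6 at 1.5-fold, 2 with cells weighted equally, 2 with a pseudocount of 5 CPM and 1 without the CD14 and CSF3R gates. At 4 h the 1 called higher became 3 with no upper limit on genes, 2 with at least 2000 UMIs, 3 with cells weighted equally, 4 at 1.5-fold and 2 without those gates, and the 3 called lower became 1 with equal weights, 7 at 1.5-fold and 1 without those gates. At 8 h the 1 called higher (CXCR5) became 0 with TMM or DESeq2 size factors and 6 at 1.5-fold. With cells weighted equally, and without the CD14 and CSF3R gates, ICAM1 was called in its place. The 3 called lower at 8 h became 1 with no upper limit on genes and 6 at 1.5-fold. They became 4 with TMM or DESeq2 size factors. With cells weighted equally, with a pseudocount of 5 CPM, or without the CD14 and CSF3R gates, they became 2. CX3CR1 was newly called lower at 8 h with TMM or DESeq2 size factors, with equal weights and without those gates. In accessibility, the 1 gene higher at 4 h became 2 by the number of barcodes. The cause was not tested, except that a lower fold calls more genes by construction. Of all genes called at 8 h, 14.4% were higher, against 42.7% with equal weights and 28.8% with no upper limit. Without the myeloid gates this share was 34.0% at 8 h, 37.3% against 23.1% at 4 h and 55.0% against 27.6% at 2 h. Of 70 calls of members in gates, 24 were lost and 11 gained with no upper limit on genes, and 6 lost and 6 gained in cells with at least 2000 UMIs. The latter include the loss of CXCR2 in the CD14 gate at 2 h and 4 h and in the CSF3R gate at 4 h, and higher calls of ITGA2 in the CD4 gate at 2 h and 4 h. No paired analysis was possible because each group had 1 library. The intervals do not cover differences between libraries.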
